A study of Mus musculus with 6 samples.

Results

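The genes described here are 4 transcription factors of the Tcf/Lef family (Tcf7, Lef1, Tcf7l1 and Tcf7l2) and 3 feedback genes that are widely read as Wnt targets (Axin2, Nkd1 and Nkd2). They were chosen by symbol from probe sets that list 1 gene, with the brightest probe set over all 6 arrays standing for a gene that had several. Of the 7 genes, 6 could be measured in this way, among 22180 genes in all. Tcf7 is not analysed here. The 6 measured genes had 7 probe sets, 2 of them for Axin2.

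The RNA came from cells given as fibroblasts of the dorsal body wall, taken at E14.5 from mouse embryos of strain 129SV. The embryos of both groups were heterozygous for the reporter allele, Ebf2(GFP)/+, in which green fluorescent protein (GFP) reports the Ebf2 gene, so the control cells carried that allele too. Cells bearing PDGFRα, a surface receptor of mesenchymal cells, were sorted into an Ebf2(GFP)+ group (3 arrays) and an Ebf2(GFP)- group (3 arrays), called GFP-positive and GFP-negative below. The GFP-negative arrays also held signal of other cell types, with mean log2 levels of 10.31 to 10.54 for 16 chondrocyte genes and 9.23 to 10.11 for 16 macrophage genes. The series presents Ebf2 as a marker of brown and beige fat precursors, and the comparison asks how those cells differ from the other PDGFRα-bearing cells around them. Nothing in the labels says whether replicates are separate litters or pools of embryos, so p-values measure the spread between these arrays, which may be technical.

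In the canonical Wnt pathway, a Wnt ligand stops the destruction of beta-catenin, which then enters the nucleus and joins a Tcf/Lef protein on DNA. Without beta-catenin the same proteins recruit Groucho/TLE corepressors and keep their targets silent. Tcf7 and Lef1 are known mainly as activators, Tcf7l1 mainly as a repressor, and Tcf7l2 as either. Axin2 encodes a scaffold of the beta-catenin destruction complex, and Nkd1 and Nkd2 encode proteins that bind Dishevelled. All 3 dampen the signal, and Axin2 is the usual readout of canonical signalling. In the embryonic trunk the pathway is known to favour dermal fate and to oppose fat cell formation.

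For Lef1 and Tcf7l2, the factors that changed in opposite directions, the bases just before the first RefSeq start are shown 5′ to 3′ on the gene's strand, in GRCm38.p6 coordinates. The Tcf7l2 stretch stops where the RefSeq gene begins. The array values themselves carry no coordinates. The Tcf/Lef core was searched as CTTTGNN with A or T at each N, on both strands, in the 250 bases before each start, and a match would be in capitals. Neither stretch held one.
Lef1, chr3:131110047-131110296, strand +: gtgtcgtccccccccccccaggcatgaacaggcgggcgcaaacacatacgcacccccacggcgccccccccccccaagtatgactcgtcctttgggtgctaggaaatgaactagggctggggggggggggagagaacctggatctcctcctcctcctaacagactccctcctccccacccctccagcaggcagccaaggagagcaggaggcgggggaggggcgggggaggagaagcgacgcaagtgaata
Tcf7l2, chr19:55741560-55741796, strand +: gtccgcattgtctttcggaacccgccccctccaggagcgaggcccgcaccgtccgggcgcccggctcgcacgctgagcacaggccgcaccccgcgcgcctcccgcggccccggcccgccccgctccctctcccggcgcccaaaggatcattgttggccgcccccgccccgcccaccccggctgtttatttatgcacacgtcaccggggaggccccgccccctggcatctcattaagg

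RefSeq listed 12 start sites for the 7 genes, and the core stood before 2 of them (16.7%), against 4874 of 32851 windows of the same length in the whole table (14.8%). The 12 include the starts of Tcf7, and the windows of the first 2 Lef1 starts overlap for most of their length. Both matches lay before internal starts, 1 of Lef1 and 1 of Tcf7l2. They are shown with the core, or its reverse complement, in capitals.
Lef1, internal start, chr3:131156136-131156165, strand +: caacctcagaaTACAAAGtaggattgcatt
Tcf7l2, internal start, chr19:55895296-55895320, strand +: aaaatatcaggCTTTGTTcttttga

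The Axin2 window (chromosome 11) and the Nkd1 window (chromosome 8) held no core. These windows lie within the span of their genes and are not printed. The bases before the 12 starts were rich in G and C, with a median of 65.4% against 52.4% over all windows. A match is only a run of letters, and its absence from these windows says nothing of more distant sites.

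Lef1 fell steeply in GFP-positive cells, Axin2 and Nkd1 fell with it, and Tcf7l2 rose. Of the 6 measured genes, 3 were lower and 1 was higher at an adjusted p under 0.05 in limma's test over all genes. In that test 6.49% of all genes passed, 3.84% as lower and 2.65% as higher. Tcf7l1 and Nkd2 did not pass. The median log2 change of the 6 genes was −0.53, against 0.02 over all genes tested. In 5 of the 6 genes the arrays of the groups did not overlap, which held for 22% of all genes. The 6 genes were chosen with earlier results of these arrays known, so their shares and median are not independent evidence.

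**Figure D1:**
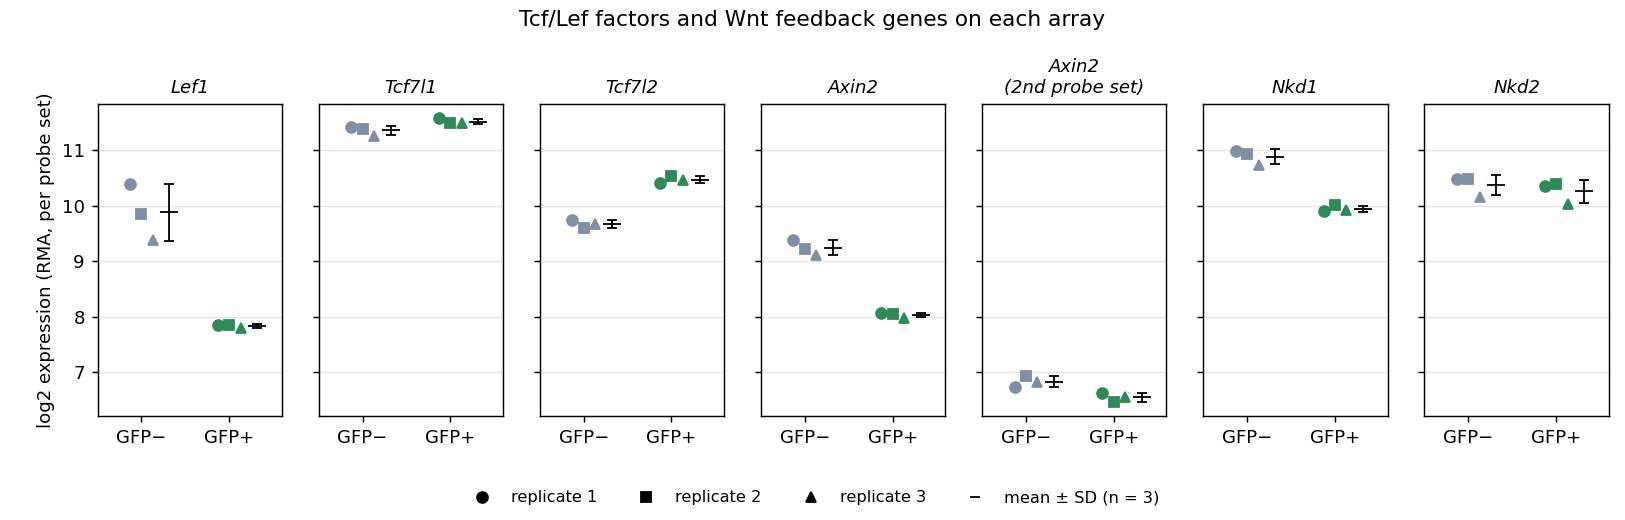
Log2 expression of each probe set (vertical axis) in GFP-negative (GFP−, grey) and GFP-positive (GFP+, green) cells, with 1 symbol per replicate number and the mean ± SD of 3 arrays beside them. The groups stand apart in every panel except that of Nkd2, and heights in different panels are not comparable because each probe set has its own response.

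Lef1, known from hair follicle formation and from lymphocytes, had log2 levels of 10.40, 9.86 and 9.38 in GFP-negative replicates 1, 2 and 3. In GFP-positive replicates 1, 2 and 3 its levels were 7.85, 7.86 and 7.79. The GFP-positive arrays were nearly equal and the GFP-negative arrays were spread over about a log2 unit, without any overlap. The group means were 7.83 ± 0.036 (SD, n = 3) and 9.88 ± 0.512 (SD, n = 3), a 4.13-fold decrease (log2 change −2.05 ± 0.23 SE, limma adjusted p = 0.00462). Only 79 of the 22180 genes had a larger change in either direction. Lef1 passed with any 1 array left out, with log2 changes from −2.30 to −1.78.

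Tcf7l2 moved the other way. This factor, formerly called Tcf4, is known for its roles in gut epithelium and metabolism. Its log2 levels were 9.73, 9.59 and 9.66 in the GFP-negative arrays, and 10.40, 10.53 and 10.47 in the GFP-positive ones. Every GFP-positive array was thus above every GFP-negative one, with little spread in either group. The means were 10.47 ± 0.064 (SD, n = 3) and 9.66 ± 0.071 (SD, n = 3), a 1.75-fold increase (log2 change 0.80 ± 0.06 SE, limma adjusted p = 0.00116).

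Tcf7l1, formerly Tcf3, lay at 11.43, 11.38 and 11.26 in GFP-negative cells and at 11.58, 11.48 and 11.49 in GFP-positive cells. Its arrays did not overlap, but the gap was narrow. The log2 change was 0.16 ± 0.06 SE and missed the threshold (limma adjusted p = 0.258), and its 95% interval ran from 0.01 to 0.31.

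Whether these 3 factors changed by unequal amounts was tested on the log2 difference of each pair within an array, which a constant added to a whole array cannot alter. The change of Lef1 minus that of Tcf7l2 was −2.85, that of Lef1 minus Tcf7l1 was −2.21, and that of Tcf7l1 minus Tcf7l2 was −0.64. In each of the 3 pairs the groups did not overlap. For Lef1 against Tcf7l2 and against Tcf7l1 this had to be so, as Lef1 was lower and the other factor higher in every GFP-positive array. The two-sided exact permutation p was 0.1 for each pair, also adjusted over the 3 pairs, which is the smallest that 3 arrays against 3 allow. For the pairs with Lef1 that p was fixed by the separate results of the genes and adds nothing to them.

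Among the feedback genes, the brighter Axin2 probe set gave log2 levels of 9.39, 9.22 and 9.12 in GFP-negative cells and of 8.06, 8.05 and 7.98 in GFP-positive cells. The groups lay about a log2 unit apart. The means of 8.03 ± 0.042 (SD, n = 3) and 9.24 ± 0.137 (SD, n = 3) differ by 2.32-fold (log2 change −1.21 ± 0.08 SE, limma adjusted p = 0.000602). The second Axin2 probe set was dim, at 6.72, 6.94 and 6.83 in GFP-negative and 6.63, 6.47 and 6.54 in GFP-positive cells. Its levels straddle the 40th percentile of all gene means (6.78), which serves here as a mark of dim signal because the files carry no detection calls. It too was lower in each GFP-positive array, but with each probe set tested by itself, where 6.01% of probe sets passed, the log2 difference was −0.28 ± 0.08 SE and missed the threshold (limma adjusted p = 0.0950). With both probe sets averaged, the change of Axin2 was −0.75 and still passed (limma adjusted p = 0.00110).

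Nkd1 had log2 levels of 10.99, 10.93 and 10.73 in GFP-negative cells and of 9.91, 10.01 and 9.92 in GFP-positive cells. It was thus lower in all 3 GFP-positive arrays, by 1.92-fold (log2 change −0.94 ± 0.08 SE, limma adjusted p = 0.00153). Nkd2, its paralog, was at 10.49, 10.48 and 10.16 in GFP-negative cells and at 10.36, 10.39 and 10.02 in GFP-positive cells. Here the groups overlapped, and replicate 3 was the lowest array in both. The log2 change of Nkd2 was −0.12 ± 0.13 SE (limma adjusted p = 0.723), with a 95% interval from −0.43 to 0.19. Within replicate numbers 1, 2 and 3 it was lower in GFP-positive cells each time, by log2 changes of −0.13, −0.09 and −0.14, and with the replicate number as a block it still did not pass (limma adjusted p = 0.231). The change of Nkd1 lies outside the 95% interval of Nkd2. The within-array difference between Nkd1 and Nkd2 changed by −0.82, that between Axin2 and Nkd2 by −1.09 and that between Axin2 and Nkd1 by −0.27. Each of these 3 pairs, which were added after the values were seen, kept the groups apart (two-sided exact permutation p = 0.1, also adjusted over the 3 pairs, the smallest possible).

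**Figure D2:**
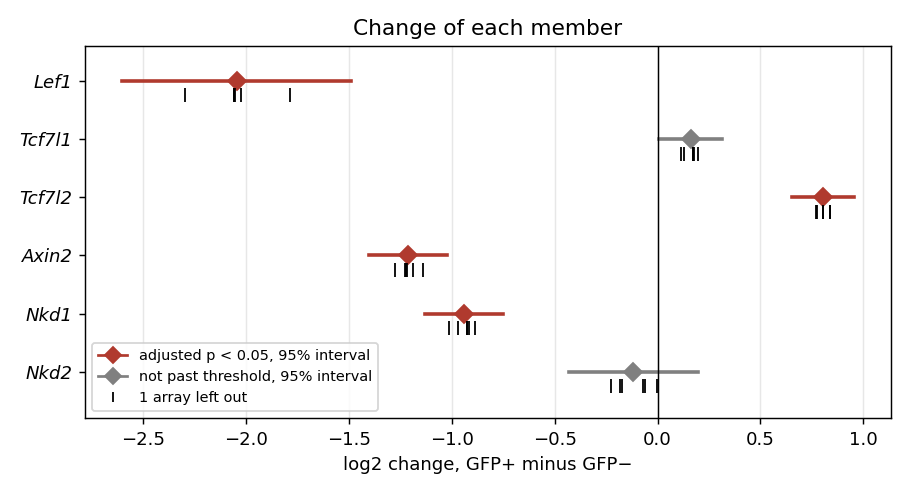
Log2 change of the 6 measured genes (GFP-positive minus GFP-negative, horizontal axis) with limma's 95% interval, and below each the values with 1 array left out as short ticks. Lef1, Axin2 and Nkd1 lie below 0 and Tcf7l2 above it with every array left out in turn, whereas the interval of Nkd2 spans 0 and that of Tcf7l1 begins at 0.01.

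The order of Lef1 among the GFP-negative arrays recurred in other genes, with a smaller spread in Axin2 and Nkd1. Lef1, Axin2 and Nkd1 were each highest in GFP-negative replicate 1 and lowest in replicate 3, as were Tcf7l1 and Nkd2, which makes 5 of the 6 genes. Tcf7l2 was not. Of all genes tested, 14.1% had that arrangement, and of all genes that fell, 21.2%. This arrangement was looked for after the values had been seen. Ebf2, the gene of the sort, was arranged the other way, with log2 levels of 8.16, 8.60 and 9.21 in GFP-negative replicates 1, 2 and 3. In the GFP-positive arrays Ebf2 lay between 11.93 and 12.04. The array with the most Lef1 was therefore the one with the least Ebf2, over 3 GFP-negative arrays only.

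Markers of other cell types moved between the groups in the same arrays. All 16 chondrocyte genes were lower in GFP-positive cells, with a list mean of 10.31 to 10.54 in GFP-negative and 8.88 to 9.17 in GFP-positive arrays. All 16 macrophage genes were lower too, with list means of 9.23 to 10.11 and 7.08 to 8.03. Embryonic dermal fibroblast genes were lower for 4 of 12 and higher for 0, with list means of 10.97 to 11.07 and 10.76 to 10.93. The 4 lower genes were Twist2, Prdm1, Crabp1 and Tbx15, with log2 changes of −1.67, −0.91, −0.45 and −0.25 (limma adjusted p up to 0.0375). The median log2 change of the dermal list was −0.05, and Trps1, Crabp2 and Dlk1 were higher in each GFP-positive array without passing. Over all genes 3.84% passed as lower and 2.65% as higher. All marker lists were drawn up with earlier results of these arrays known, so their counts are not independent evidence of a direction. The chondrocyte mean was 10.54, 10.38 and 10.31 in GFP-negative replicates 1, 2 and 3, in the same order as Lef1, Axin2 and Nkd1. The macrophage mean was 9.72, 9.23 and 10.11 in those arrays. These orders rest on 3 arrays and were noted after the values were seen. Of all genes, 14.1% were highest in GFP-negative replicate 1 and lowest in replicate 3. The part of these cell types in the changes of Lef1, Axin2, Nkd1 and Tcf7l2 was not tested. In such sorted bulk samples, fewer cells of a type and less RNA per cell cannot be told apart. Lymphocytes and epidermis are also known to use Lef1. All 10 measured T lymphocyte markers lay below the dim mark with none passing (0 also at an unadjusted p under 0.05). The epidermis and hair placode list had means of 6.70 to 6.96 over the 6 arrays, and 4 of its 11 genes lay below the dim mark. Its 1 lower gene was Cdh1, which encodes the epithelial adhesion protein E-cadherin, at 8.50, 8.21 and 8.29 in GFP-negative and 7.28, 7.13 and 7.32 in GFP-positive cells (2.13-fold lower, limma adjusted p = 0.00161). The median log2 change of the epidermis list was −0.03, and no gene of it passed as higher. Without passing, Epcam was higher in each GFP-positive array (log2 change 0.49, limma adjusted p = 0.0976). Perp was lower in each, also without passing (log2 change −0.50, limma adjusted p = 0.154). The part of epidermal cells in the changes was not tested either. All 10 measured fibroblast markers lay above the dim mark, with list means of 12.57 to 12.85. Of these, Thy1 (3.86-fold, limma adjusted p = 0.000276) and Lum (1.27-fold, limma adjusted p = 0.0295) were lower in GFP-positive cells and the other 8 did not pass.

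**Figure D3:**
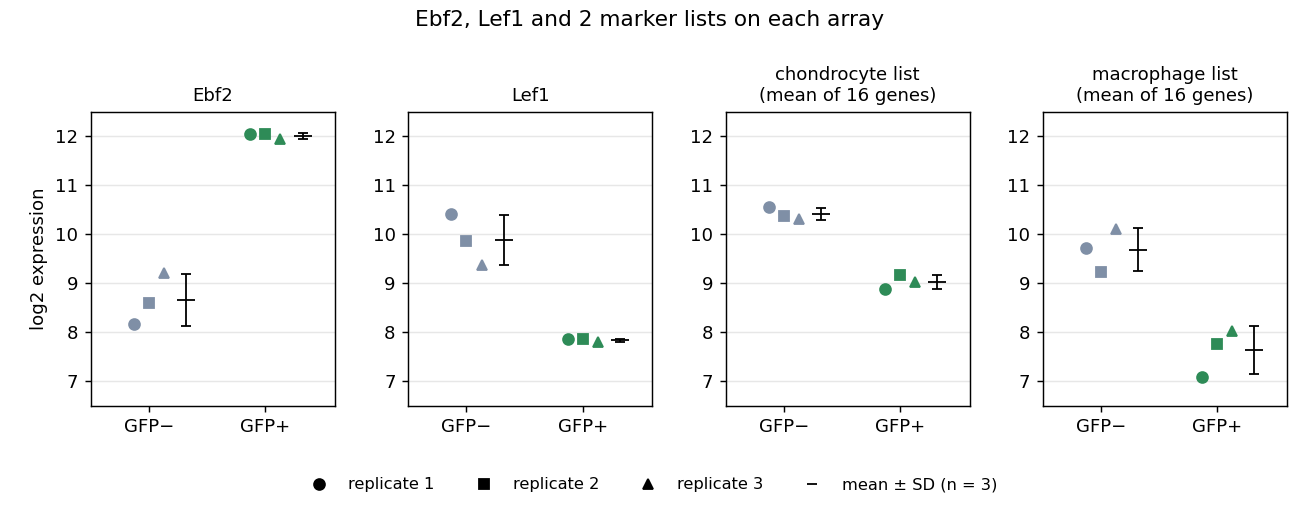
Log2 level of Ebf2 and Lef1 and the mean log2 level of 16 chondrocyte and 16 macrophage marker genes on each array (vertical axis), with 1 symbol per replicate number and the mean ± SD of 3 arrays. Among GFP-negative arrays Lef1 and the chondrocyte mean are highest in replicate 1 and lowest in replicate 3, Ebf2 and the macrophage mean are highest in replicate 3, and in each panel the 2 groups do not overlap.

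In the rest of the intracellular pathway no gene passed, which for lists this short is near the 6.49% passing over all genes. Of 21 measured genes of the intracellular machinery (beta-catenin, the destruction complex, Dishevelled and their regulators), none passed limma's test, and 2 had an unadjusted p under 0.05. Their log2 changes ran from −0.08 (Prickle1) to 0.20 (Dact1), with a median of 0.04. Ctnnb1, which encodes beta-catenin itself, had log2 levels of 12.67, 12.68 and 12.59 in GFP-negative and 12.72, 12.61 and 12.57 in GFP-positive cells. These overlap fully, and the 95% interval of its log2 change ran from −0.16 to 0.14. Axin1, the constitutive relative of Axin2, had a log2 change of −0.05 ± 0.07 SE (limma adjusted p = 0.793). Tnks2, a tankyrase that marks Axin proteins for destruction, passed when the variance was modelled with a trend (log2 change 0.18, limma adjusted p = 0.0319) and not otherwise (0.0977 in the plain fit).

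Of 26 measured nuclear partners of the Tcf/Lef proteins, none passed limma's test and 4 had an unadjusted p under 0.05, with a median log2 change of 0.02. None of 26 is likewise near the 6.49% of all genes that passed. Tle2, a Groucho corepressor, and Hipk2, a kinase acting on Tcf/Lef proteins, had log2 changes of 0.32 and −0.29, the extremes of the list. With the replicate number as a block, which pairs the arrays, both passed (limma adjusted p = 0.0238 and 0.0388, against 0.157 and 0.269 without). The coactivator genes Bcl9, Pygo1 and Pygo2 had log2 changes of 0.15, 0.11 and 0.03, and none of these passed under any setting tried.

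Other genes that are widely used as Wnt targets were split between a falling group and a larger one that did not pass. Of 40 measured, 11 were lower, 1 was higher and 28 did not pass limma's test, and the median log2 change was −0.09. That is 30% passing, against 6.49% of all genes, but the list was drawn up with earlier results of these arrays known and is not independent evidence of its direction. Tnfrsf19, a receptor of the tumour necrosis factor family, fell from 11.07, 10.99 and 10.66 to 8.59, 8.72 and 8.60 (4.81-fold, log2 change −2.27 ± 0.11 SE, limma adjusted p = 0.000324). Dkk1, which encodes a secreted inhibitor of Wnt receptors, fell from 9.08, 8.82 and 8.59 to 6.66, 6.73 and 6.78 (4.31-fold, limma adjusted p = 0.000470). In both genes GFP-negative replicate 1 was the highest array, as in Lef1. The GFP-positive levels of Dkk1 lie at or below the dim mark, so its fold may be understated. Apcdd1, a membrane inhibitor of the pathway, was 3.38-fold lower, and Msx2, a homeobox gene of dermis and bone, was 1.89-fold lower with GFP-positive levels below the dim mark.

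The other 7 lower genes, named after their values were seen, had log2 changes from −1.64 to −0.69. They were Wif1, a secreted Wnt-binding protein gene, Sp5, Notum, Lgr5, Twist1, Kremen1 and the cell cycle gene Ccnd1. The GFP-positive levels of Sp5 and Notum lie near the dim mark, so their folds may be understated. Over the 16 settings tried, the log2 change was as small as −0.56 for Notum and −0.51 for Lgr5. Lgr5, the R-spondin receptor gene, lost its call without any 1 GFP-negative array and without GFP-positive replicate 1 or 3 (limma adjusted p up to 0.0965). Tbx3, a T-box gene, rose 1.56-fold (log2 change 0.64 ± 0.11 SE, limma adjusted p = 0.0191), from 10.26, 9.92 and 10.06 to 10.85, 10.74 and 10.57. Its call ended without GFP-negative replicate 2 or 3 or GFP-positive replicate 1 or 2 (limma adjusted p up to 0.0860). Among the targets that did not pass were Znrf3 and Rnf43, which encode ligases that remove Wnt receptors from the surface, with 95% intervals of their log2 changes from −0.33 to 0.16 and from −0.37 to 0.07. Myc had an interval from −0.06 to 0.23.

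**Figure D4:**
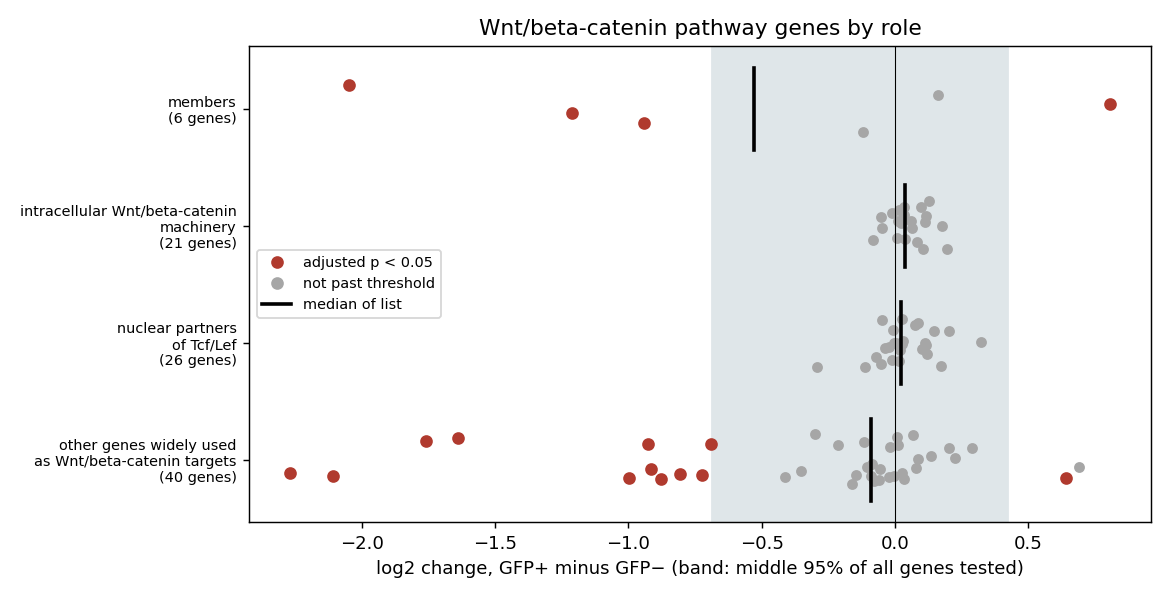
Log2 change (GFP-positive minus GFP-negative, horizontal axis) of each measured gene in the 4 groups, 1 point per gene, red where the adjusted p was under 0.05, with the median of each group as a bar and the middle 95% of all genes tested (−0.69 to 0.42) as a band. The machinery and the nuclear partners lie within the band, whereas 3 of the 6 members and 11 of the 40 other targets lie at or below its left edge. Tcf7l2 among the members, and Tbx3 and Fst among the other targets, lie beyond its right edge.

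The genes with the nearest patterns were sought by the root mean square difference of log2 values, each gene centred on its own mean, over the 6 arrays among all genes tested. This is a description and says nothing of shared control. For Lef1 they were Grik3, a kainate receptor subunit gene (0.105), Plxna4, a semaphorin receptor gene (0.156), and Dkk1 (0.164). Their log2 changes were −2.16, −1.96 and −2.11. For Tcf7l2 they were Trhde, which encodes an enzyme that degrades thyrotropin-releasing hormone (0.0533), the metalloprotease gene Adam19 (0.0607) and the growth factor receptor gene Egfr (0.0619), with log2 changes of 0.87, 0.76 and 0.74. For Axin2 they were the fibroblast growth factor receptor gene Fgfr2 (0.0570), the ETS factor gene Erg (0.0793) and Syt17 (0.0836), with log2 changes of −1.24, −1.29 and −1.08. Erg is also on the endothelial marker list, of whose 12 genes 2 were lower and 1 higher, against 3.84% and 2.65% of all genes. The list means were 8.58 to 9.14 in GFP-negative and 8.41 to 8.70 in GFP-positive arrays. For Nkd1 they were Emp2 (0.0476), Notum, which encodes an enzyme that inactivates Wnt ligands (0.0523), and Prdm1, a transcriptional repressor gene on the dermal list (0.0529).

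**Figure D5:**
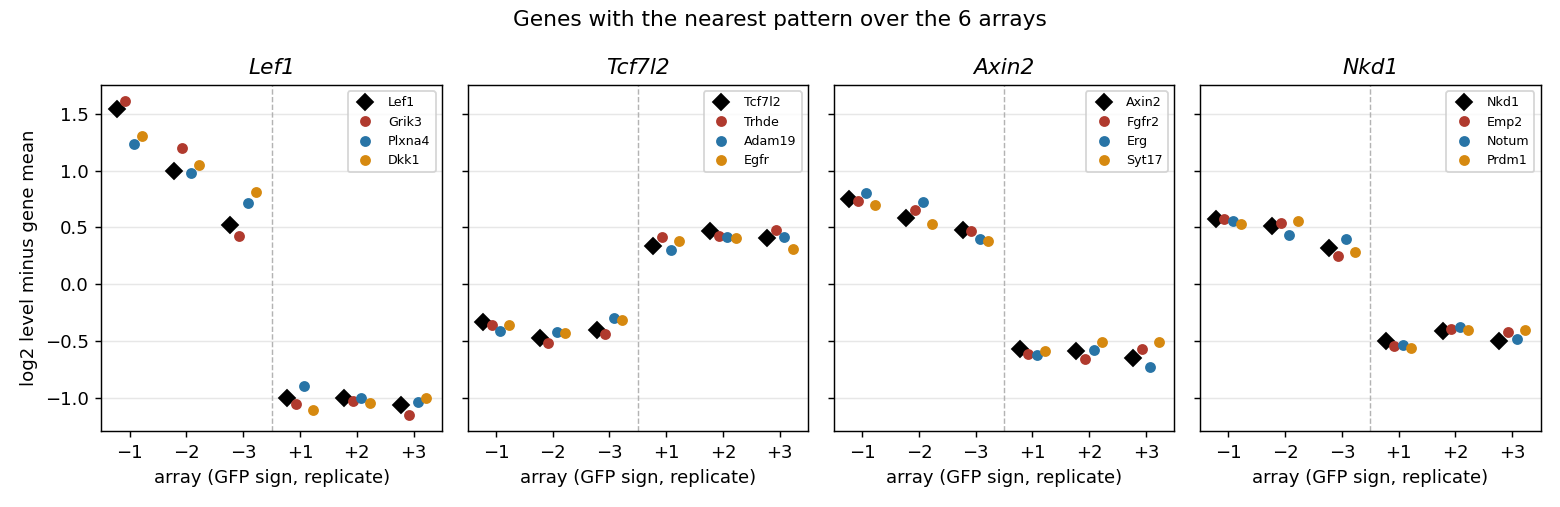
Log2 level minus the gene's mean over the 6 arrays (vertical axis) for Lef1, Tcf7l2, Axin2 and Nkd1 (black diamonds) and the 3 genes nearest to each (coloured points), on GFP-negative replicates 1 to 3 (−1 to −3) and GFP-positive replicates 1 to 3 (+1 to +3). The spread among GFP-negative arrays is widest in the Lef1 panel, and Grik3 follows Lef1 most closely with a root mean square difference of 0.105.

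Over the whole series, 1439 of 22180 genes passed, 588 higher and 851 lower. With each array centred on its median over genes, an alternative added after the data were seen, 868 were higher and 749 lower, so the share of higher calls was 53.7% in place of 40.9%. Under that centring Lef1, Axin2, Nkd1 and Tcf7l2 passed in the same directions. Without GFP-positive replicate 1, 2 or 3 the count of all genes fell to 629, 667 or 762, and the same 4 genes passed each time. Ebf2, on which the cells were sorted, was 10.2-fold higher in GFP-positive cells (limma adjusted p = 0.000916). Medians of the single arrays ran from 6.657 to 6.712. Precision is limited by there being 3 arrays a group.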

How the data were processed

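Total RNA of 6 sorted samples was labelled with biotin and hybridised to Affymetrix arrays. The deposited table holds log2 expression, 1 row per probe set. RMA and limma are listed in the submitters' processing notes without a version. Any filter is not given in the sources used here. The log2 scale was read from the values (3.41 to 14.32). RMA gives arrays a common distribution, so a shift of most genes would not show.

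Of 41345 probe sets, 190 were controls, 23521 list 1 gene in the platform table, 1814 several and 15820 none. Symbols were updated by gene identifier through RefSeq genes of GRCm38.p6 (23328 of 23521 matched), which is also the source of the promoter sequences, where all 7 symbols matched. The brightest probe set stood for a gene (1082 genes had several), without a filter on dim signal.

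lmFit and eBayes of limma 3.58.1 (R 4.3.3) compared the groups over all 22180 genes, with Benjamini-Hochberg adjustment and a threshold of 0.05. The script was tested on simulated data. Changes are GFP-positive minus GFP-negative, and errors of changes are moderated standard errors.

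Members and lists were chosen with earlier results of these data known. Beyond the members, the rule named Ebf2, Pdgfra, up to 4 passing genes per direction and pathway list, and the 3 nearest genes of each passing member; Pdgfra had a log2 change of 0.19 (limma adjusted p = 0.178). Other genes were named after their values were seen.

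The labels number replicates alike in both groups. Deviations from group means correlated at 0.314 to 0.519 between same-numbered arrays and at −0.384 to −0.0243 between others. Such deviations cancel within a group, so positive values between same-numbered arrays force negative ones elsewhere. The main test left pairing out. In an alternative with a replicate block, the numbers were taken to pair the arrays, on the data alone. Alternatives were that replicate block, quantile normalization, 2 centrings, dropping dim probe sets, the mean of a gene's probe sets, each probe set by itself, array weights, a trended or a robust eBayes, a threshold of 0.01, and leaving out each array.

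The other marker lists gave these counts of lower and higher genes: fibroblast 2 and 0 of 10, Schwann and neural crest 2 and 1 of 8, melanoblast 0 and 0 of 8 (1 at an unadjusted limma p under 0.05), skeletal muscle 0 and 1 of 13, mural 4 and 1 of 10, and osteoblast 3 and 1 of 7. Over all genes the shares were 3.84% lower and 2.65% higher.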

Additional observations from a re-analysis of the deposited data

How the results depend on the processing

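Lef1, Axin2, Nkd1 and Tcf7l2 kept their direction and passed in all 16 alternatives each, the 6 that leave out 1 array among them, and Tcf7l1 and Nkd2 passed in none of 16. The log2 change ranged from −2.30 to −1.78 for Lef1 (adjusted p up to 0.0308), from −1.28 to −0.75 for Axin2 (the smallest with its 2 probe sets averaged), from −1.02 to −0.88 for Nkd1, and from 0.77 to 0.86 for Tcf7l2. That of Tcf7l1 ran from 0.11 to 0.22 (adjusted p from 0.149 to 0.535) and that of Nkd2 from −0.23 to −0.001 (adjusted p from 0.231 to 0.999). The pair differences kept their sign under quantile normalization and with each array left out, and those of the Tcf/Lef factors also under median centring. Over all genes, 2228 passed with the replicate block, 539 at an adjusted p under 0.01 and 629 to 1067 with 1 array left out. The replicate block changed no call of a member. Among other Wnt targets the higher count was 3 with the replicate block, after centring on the gene median and without dim probe sets, 2 with probe sets averaged and with an eBayes trend, and 0 to 1 with 1 array left out; the genes gained were Fst, Lgr6 and Postn, whose adjusted p in the plain fit were 0.0959, 0.0649 and 0.0505. The lower count stayed between 10 and 12. The nuclear partners had 1 higher and 1 lower gene with the block, and the machinery had 1 higher gene with an eBayes trend. The cause of these shifts was not tested. A dim probe set, such as the second of Axin2, can understate a difference.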
